A study of Arabidopsis thaliana with 248 samples.

Results

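The genes described here were the nuclear genes of Arabidopsis thaliana that the deposited tables annotate as noncoding RNA, that is, neither as protein-coding genes, nor as transposable element (TE) genes, nor as pseudogenes, on chromosomes 1 to 5. They numbered 1290 of the 33602 genes in the tables. They comprised 631 tRNA genes, 394 genes of the class other_RNA, 177 miRNA genes, 71 snoRNA genes, 13 snRNA genes and 4 rRNA genes.

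mRNA-seq was performed on whole 2-week-old Col-0 seedlings grown on MS plates, with 3 biological replicates per genotype, in 2 experiments that were counted and tested separately. The study asked how histone H3 lysine 9 methylation and non-CG DNA methylation are re-established, and which factors counteract them, after both had been lost. The ldl2 experiment held 27 libraries of 9 genotypes. Among them were WT, suvh4/5/6 (a triple mutant of the H3K9 methyltransferase genes SUVH4, SUVH5 and SUVH6) and cmt2/3 (a double mutant of the CHROMOMETHYLASE genes CMT2 and CMT3). Reciprocal crosses between these mutants gave the F1 plants sxc and cxs. The remaining genotypes were suvh4/5/6, cmt2/3, sxc and cxs that also carried the T-DNA allele ldl2-1 in the histone demethylase gene LDL2. The ashh3 experiment held 9 libraries of WT, cxs and cxs with a mutation of the histone methyltransferase gene ASHH3 (T-DNA allele sdg7-2). The F1 plants were heterozygous at all 5 loci, so that each enzyme was present again, on chromosomes inherited from parents that had lacked either the histone or the DNA methyltransferases.

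Noncoding RNA genes fall into kinds with distinct products. tRNAs decode codons, snoRNAs guide chemical modification of rRNA, snRNAs are the RNA core of the spliceosome, and miRNAs are cut from longer capped and polyadenylated transcripts to guide the silencing of complementary mRNAs. The class other_RNA gathers long intergenic and antisense transcripts and the TAS transcripts, from which trans-acting siRNAs are made after a miRNA has cut them. Since mature tRNAs, snoRNAs and most snRNAs carry no poly(A) tail, an mRNA library samples them poorly, whereas polyadenylated long noncoding RNAs are sampled like mRNAs.

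The changes described below centred on 12 genes of the class other_RNA, of which 6 were higher than WT in suvh4/5/6, cmt2/3, sxc and cxs alike. The regions around the annotated starts of these 6 are printed because they are the loci on which most of the results below rest. Each holds 250 bases before the start and 50 after it, read 5′ to 3′ on the strand of the gene from the RefSeq TAIR10.1 genome, whose gene coordinates matched those of the deposited tables at these loci. Capitals mark CAG and CTG, which are each other's reverse complement and so cover both strands. They are the symmetrical CHG contexts in which CMT3 methylates cytosine. The regions are chr2:6786927-6787226 on the minus strand for AT2G15555, chr1:25057229-25057528 on the plus strand for AT1G67105, chr4:2036261-2036560 on the plus strand for AT4G04223, chr5:15154817-15155116 on the plus strand for AT5G38005, chr1:9175361-9175660 on the plus strand for AT1G26558 and chr2:183690-183989 on the plus strand for AT2G01422.
AT2G15555: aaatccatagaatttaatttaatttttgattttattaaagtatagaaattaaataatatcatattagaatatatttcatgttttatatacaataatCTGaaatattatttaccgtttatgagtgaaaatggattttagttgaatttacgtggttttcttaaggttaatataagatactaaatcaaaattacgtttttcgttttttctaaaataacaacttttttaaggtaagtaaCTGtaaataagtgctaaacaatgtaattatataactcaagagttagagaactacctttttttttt
AT1G67105: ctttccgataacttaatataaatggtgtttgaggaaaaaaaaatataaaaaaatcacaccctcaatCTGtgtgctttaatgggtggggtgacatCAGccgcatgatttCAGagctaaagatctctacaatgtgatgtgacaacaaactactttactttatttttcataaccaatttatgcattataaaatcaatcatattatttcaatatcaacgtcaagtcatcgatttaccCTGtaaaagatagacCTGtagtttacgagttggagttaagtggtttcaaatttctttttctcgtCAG
AT4G04223: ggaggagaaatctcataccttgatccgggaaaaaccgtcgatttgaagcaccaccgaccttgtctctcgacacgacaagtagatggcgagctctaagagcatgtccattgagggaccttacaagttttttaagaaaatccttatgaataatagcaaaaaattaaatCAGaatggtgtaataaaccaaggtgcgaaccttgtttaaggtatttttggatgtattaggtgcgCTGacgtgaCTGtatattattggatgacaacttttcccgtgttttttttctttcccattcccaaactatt
AT5G38005: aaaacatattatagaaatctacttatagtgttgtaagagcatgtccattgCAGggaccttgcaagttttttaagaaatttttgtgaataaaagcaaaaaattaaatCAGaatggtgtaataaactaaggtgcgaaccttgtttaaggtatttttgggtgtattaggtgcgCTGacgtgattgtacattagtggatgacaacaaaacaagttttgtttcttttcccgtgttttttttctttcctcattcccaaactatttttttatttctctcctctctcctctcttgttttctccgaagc
AT1G26558: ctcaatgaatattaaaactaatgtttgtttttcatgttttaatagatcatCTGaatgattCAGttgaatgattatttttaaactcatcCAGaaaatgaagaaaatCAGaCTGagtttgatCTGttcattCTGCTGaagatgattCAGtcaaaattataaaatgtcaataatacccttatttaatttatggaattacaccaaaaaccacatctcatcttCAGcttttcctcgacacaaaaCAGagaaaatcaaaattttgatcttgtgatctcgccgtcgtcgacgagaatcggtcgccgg
AT2G01422: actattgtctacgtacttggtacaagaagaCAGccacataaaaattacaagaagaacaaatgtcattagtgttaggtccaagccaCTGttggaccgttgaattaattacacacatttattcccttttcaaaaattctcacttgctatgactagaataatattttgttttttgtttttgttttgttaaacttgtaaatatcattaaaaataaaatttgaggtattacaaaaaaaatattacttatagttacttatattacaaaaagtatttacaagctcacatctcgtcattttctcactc

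CAG or CTG occurred 2 times in the start region of AT2G15555, 6 times in that of AT1G67105 and 3 times in those of AT4G04223 and AT5G38005. At least as many occurred in 90.4%, 33.2% and 78.4% of the 33305 start regions of nuclear genes. The start region of AT1G26558 held 11, a number reached by 2.53% of start regions, and that of AT2G01422 held 2. Over the 12 loci the median was 3.5, against 4 over all nuclear genes and 5 over the class other_RNA, so the 12 did not stand out by this measure. The start regions of AT4G04223 and AT5G38005 share 33 consecutive bases.
Shared bases: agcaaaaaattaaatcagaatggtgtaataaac
This stretch, looked for after the sequences had been seen, occurred in 3 of the 33305 start regions (0.00901%). The third belonged to AT4G04221, and the next longest stretch shared between any pair of the 12 start regions was 13 bases.

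The TAS transcripts form a second set with a known trigger sequence. miR173 directs the cut in TAS1A, TAS1B, TAS1C and TAS2, and its sequence is printed with those sites, found by searching each annotated locus for its best match. Capitals mark the seed (bases 2 to 8) in the miRNA and the bases complementary to the miRNA in each site. The sites lie at chr2:11722081-11722102 (TAS1A), chr1:18549660-18549681 (TAS1B), chr2:16537890-16537911 (TAS1C) and chr2:16539991-16540012 (TAS2), all on the minus strand of TAIR10.1.
miR173-5p: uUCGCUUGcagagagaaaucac
TAS1A: GUGAUUUuUCUCUaCAAGCGAA
TAS1B: GUGAUUUuUCUCaaCAAGCGAA
TAS1C: GUGAUUUuUCUCUaCAAGCGAA
TAS2: GUGAUUUuUCUCUcCAAGCGAA
Of the 22 bases, 20 were complementary in TAS1A, TAS1C and TAS2 and 19 in TAS1B.

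Libraries held 8448989 to 12942034 counts in the ldl2 experiment and 8252720 to 10656469 in the ashh3 experiment, and the noncoding RNA genes took 1.67% to 9.03% and 2.1% to 6.03% of them. CMT3 was at 8.69 to 11.6 CPM (counts scaled to the size of the library) in cmt2/3 against 32.4 to 38.1 in WT, SUVH4 at 3.49 to 3.96 in suvh4/5/6 against 13.3 to 14.3, and SUVH5 at 0.466 to 1.85 against 4.62 to 5.34. SUVH6 was not lower in suvh4/5/6, and LDL2 overlapped between cmt2/3 ldl2 (2.62 to 3.59 CPM) and cmt2/3 (3.2 to 5.18 CPM), so the counts do not check these alleles, since T-DNA insertions can leave transcript in place. ASHH3 was at 11.5 to 13.2 CPM in cxs ashh3 and at 15.7 to 19 in cxs. In cxs ldl2, replicate 2 stood apart, with 2876 CPM summed over tRNA genes against 634 and 1030 in the other cxs ldl2 libraries, and with the lowest sum of 4 photosynthetic genes of the experiment (12157 CPM, in a range up to 41056). Counts of calls and medians that involve cxs ldl2 are given with and without it. The other comparisons of the ldl2 experiment share its estimate of the spread through the common fit. Their counts of calls are not given without it. Genes that mark seeds were at 4.21 to 120 CPM in sum in cxs of the ashh3 experiment, at 0.702 to 10.3 in its WT and at 0.463 to 1.15 in cxs ashh3, and root genes summed to 902 to 1687 CPM there against 82 to 234 CPM in the ldl2 experiment. The part of these differences in the results below was not tested. In whole seedlings, fewer cells of a type and less RNA per cell cannot be told apart.

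Most counts of the noncoding genes lay on rRNA. The 2 annotated 18S rRNA loci, AT3G41768 and AT2G01010, are near-identical copies between which reads cannot be assigned with confidence. Together they held 77.5% of the noncoding counts in the ldl2 experiment and 82.8% in the ashh3 experiment. AT3G41768 stood at 10459, 21989 and 12760 CPM in WT, at 24748, 4592 and 4821 in cmt2/3 and at 45909, 5871 and 5959 in cxs ldl2. Replicates of 1 genotype thus spread widely and the genotypes overlapped, and no rRNA locus was called in any comparison.

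Among the other classes, summed levels ran from 6107 to 8381 CPM (median 6767) for other_RNA, from 243 to 942 (median 332) for miRNA genes and from 19.7 to 343 (median 39.6) for snRNA genes over the libraries of the ldl2 experiment. Replicate 2 of cxs ldl2 set the upper ends of these ranges, which were 7997, 489 and 133 without it. In the ashh3 experiment the sums were 5868 to 6860 CPM for other_RNA, 287 to 550 for tRNA genes, 185 to 254 for miRNA genes, 110 to 191 for snoRNA genes and 23.1 to 56.5 for snRNA genes. The class other_RNA, whose median genomic span was 1228 bp against 72 bp for tRNA genes, therefore held most of the counts outside rRNA. Per length of genomic span, the highest levels outside rRNA were 2562 TPM (CPM divided by span and rescaled to the same total) at AT3G22121 in the class other_RNA, and 1104 TPM at AT1G08240 and 1079 TPM at AT5G46105, both tRNA genes, in the ldl2 experiment. Among the miRNA genes MIR850 led with 638 TPM, and it lies, with MIR863 (129 TPM), inside the other_RNA gene AT4G13495. Coverage was thin elsewhere: the median was 104 counts per gene over the 27 libraries and 22 over the 9, 630 and 877 genes had under 100 counts, and 5 and 53 had none.

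How the counts were assigned to strands affects many of these genes. In each deposited table a gene was represented by the strand with the larger sum of counts, and this was the strand opposite to the annotated one for 500 of the 1290 genes (38.8%) in the ldl2 experiment and 470 (36.4%) in the ashh3 experiment. Of the 171 other_RNA genes so counted in the ldl2 experiment, 140 lay over a protein-coding gene annotated on the counted strand, and their values cannot be told apart from that gene's. AT3G22121, over AT3G22120, was of this kind, and the tRNA gene AT5G46105, over AT5G46110, was counted likewise. The strand used differed between the tables for 184 genes.

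Small genes often carried about as many counts as the genes around them. On chromosome 1 the snRNA gene U1.5 (AT1G08115) and the noncoding genes AT1G08240, AT1G08592, AT1G08870, AT1G08950 and AT1G09110, of which all but AT1G08592 are tRNA genes, were counted on the same strand and fell into 2 levels. U1.5 and AT1G08240 had 12951 and 12650 counts over the 27 libraries, and AT1G08870, AT1G08950 and AT1G09110 had 9251, 9259 and 9516, with both levels following the same course over the libraries. U1.5 was at 20.8, 25.6 and 79.8 CPM in WT, at 36.4, 46 and 15 CPM in cxs and at 41.2, 236 and 110 CPM in cxs ldl2 in the ldl2 experiment. For comparison, the lowest count in each library among the 10 nearest genes counted on the same strand (5 on each side) was summed over libraries. At U1.5, counted on the strand opposite to its annotation, this sum came to 99.9% of the gene's own counts in the ldl2 experiment.

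**Figure D1:**
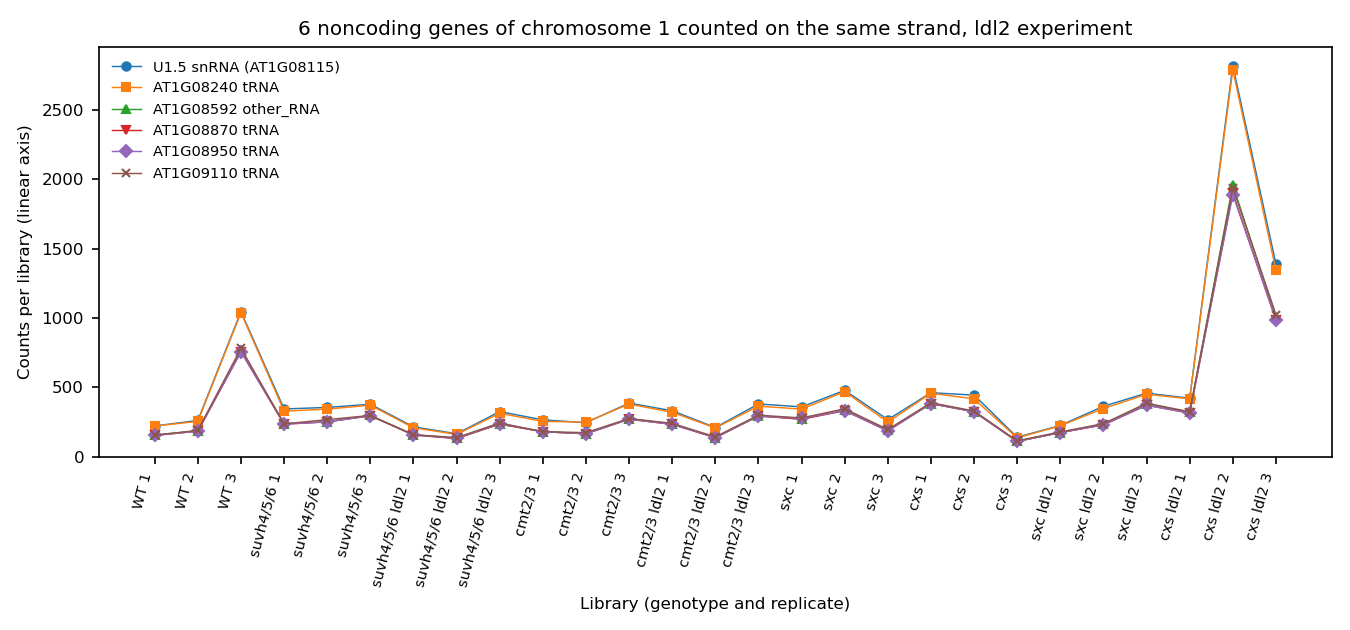
Counts per library (vertical axis) of 6 noncoding genes on chromosome 1 counted on the same strand in the ldl2 experiment, with libraries grouped by genotype along the horizontal axis. The curves run in parallel at 2 levels, U1.5 (AT1G08115) and AT1G08240 above the other 4 genes, and cxs ldl2 replicate 2 is the highest library.

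A gene was taken to be at the level of its neighbours when that sum reached 50% of its own, a rule set after the values had been seen. Of the genes with at least 100 counts, 251 of 660 (38%) were at that level in the ldl2 experiment: 141 of 185 tRNA genes (76.2%), 42 of 81 miRNA genes (51.9%), 20 of 44 snoRNA genes (45.5%), 4 of 9 snRNA genes (44.4%) and 44 of 337 other_RNA genes (13.1%). In the ashh3 experiment 90 of 413 (21.8%) were, among them 51 of 63 tRNA genes (81%) and 23 of 289 other_RNA genes (7.96%). The longest run of near-equal counts in the ldl2 experiment was a tRNA array from AT1G28720 to AT1G28990, whose 26 genes, spread over 19345 bp, had 2024 to 2026 counts each. A further 9 tRNA genes, AT2G33890 to AT2G33970, had 976 to 977 each. Where such counts came from was not tested. In what follows, genes at the level of their neighbours, genes that overlap another gene on the counted strand, and genes with counts of their own are kept apart. Counts of their own means only that neither of the other conditions held. Such genes can still share counts with close neighbours.

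**Figure D2:**
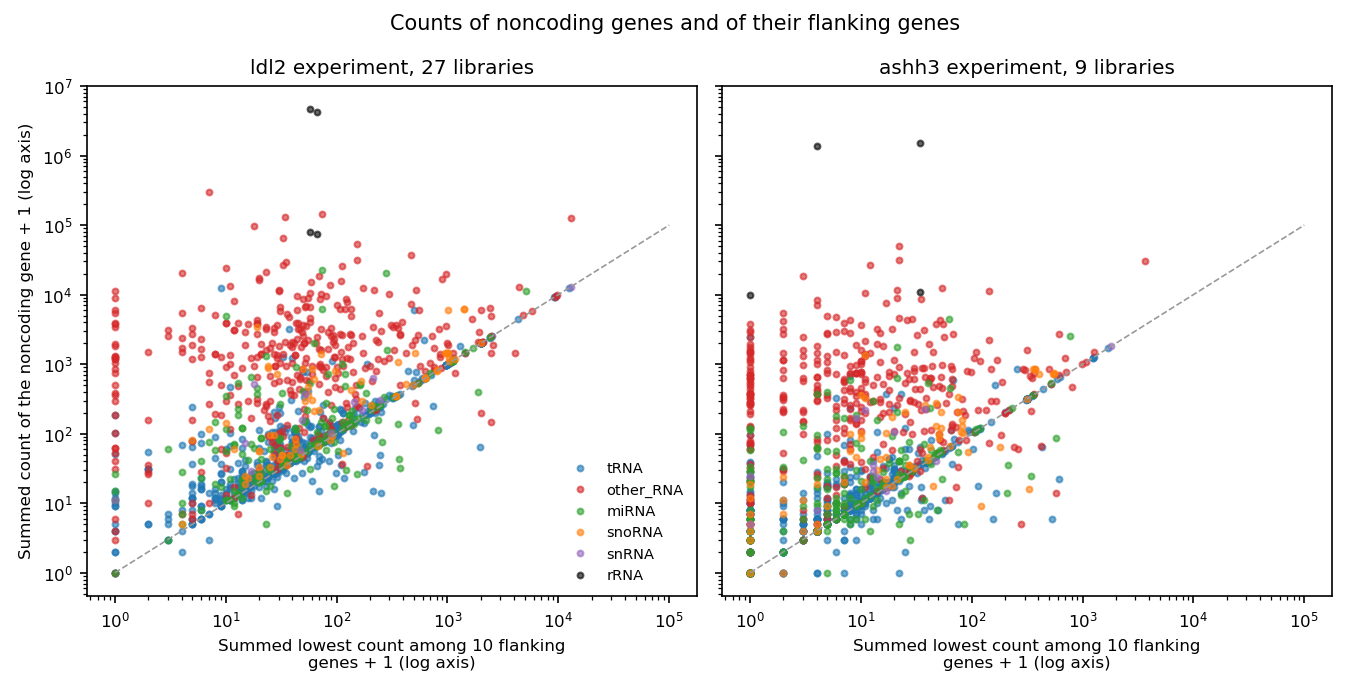
Summed count of each noncoding gene (vertical axis, plus 1, log scale), coloured by class, in the ldl2 and the ashh3 experiment. The horizontal axis shows the summed lowest count among its 10 flanking genes counted on the same strand (plus 1, log scale). Many tRNA genes lie on the dashed line of equality, while most other_RNA genes and all 4 rRNA genes lie far above it.

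A small group of long noncoding RNAs was higher in both mutants and in the F1 plants. With adjusted p under 0.05 (edgeR quasi-likelihood test, Benjamini-Hochberg over all 33602 genes) as the threshold for a call, 13 of the 1290 genes were called in suvh4/5/6 against WT, 11 higher and 2 lower, where 2.61% of all genes were called (2.09% higher, 0.527% lower). In cmt2/3 against WT 13 were called, 10 higher and 3 lower, against 3.67% of all genes (2.32% higher, 1.36% lower). The F1 plants had fewer, 7 higher and 0 lower in sxc, where 0.857% of all genes were called (0.711% higher, 0.146% lower), and 8 higher and 0 lower in cxs, where 0.78% were (0.714% higher, 0.0655% lower). The calls came to 1.01%, 1.01%, 0.543% and 0.62% of the 1290 genes, each below the share over all genes in the same test. In cmt2/3 DESeq2 called 27 noncoding genes and a fit of only cmt2/3 and WT called 29, so that count rests on the test used. By the first test it was 7 without cmt2/3 replicate 2, and that in sxc was 11 without sxc replicate 3.

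All genes called in these 4 comparisons belonged to other_RNA. Of the 13 in suvh4/5/6, 12 had counts of their own and 1 overlapped another gene on the counted strand, and of the 13 in cmt2/3 the numbers were 9 and 3, with 1 at the level of its neighbours. No miRNA gene was called in any of the 4 comparisons by the edgeR quasi-likelihood test, while the number with an unadjusted p under 0.05 was 6 in suvh4/5/6, 7 in cmt2/3, 5 in sxc and 7 in cxs. The genes higher than WT with counts of their own in at least 1 of the 4 genotypes came to 12, each counted on its annotated strand: AT1G26558, AT1G67105, AT2G01422, AT2G05914, AT2G06002, AT2G07213, AT2G15555, AT3G13277, AT4G04223, AT4G14548, AT4G34071 and AT5G38005. The first 3 of these with AT2G15555, AT4G04223 and AT5G38005 were called in all 4 genotypes. Since the 4 comparisons share the WT libraries, the shared calls are given as values side by side.

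AT2G15555, on the minus strand of chromosome 2 at positions 6785904 to 6786976, had the largest fitted change of the 12 in each of the 4 genotypes. It was at 0, 0 and 0.153 CPM in WT, at 110, 115 and 106 in suvh4/5/6, at 25.4, 35 and 40.2 in cmt2/3, at 52.5, 60.6 and 73.6 in sxc and at 83.1, 65 and 85.3 in cxs. Every mutant or F1 library lay above every WT library, and the levels of suvh4/5/6 and cmt2/3 did not overlap. Since WT held 2 counts in all, the ratio of pooled CPM to WT was 1880 in suvh4/5/6 (95% interval from counting error alone 520 to 15527), 565 in cmt2/3 (156 to 4669), 1035 in sxc (286 to 8555) and 1326 in cxs (367 to 10959). The adjusted p values were 1.71e-10, 1.29e-08, 1.36e-09 and 6.22e-10 (edgeR quasi-likelihood test). The nearest TE gene, AT2G15550, lay 724 bp away.

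AT1G67105, on the plus strand of chromosome 1 at 25057479 to 25058264, was the one of the 12 at which the mutants differed most. It was at 0.754, 0.294 and 0.61 CPM in WT, at 131, 149 and 166 in suvh4/5/6 and at 2.98, 9.16 and 4.17 in cmt2/3. The F1 plants stood between, with 83.3, 65.5 and 90.8 CPM in sxc and 68.7, 65.8 and 68.2 in cxs. The 5 genotypes did not overlap except for sxc with cxs. The log2 fold changes from WT were 8.03 (SE 0.54, adjusted p = 9.46e-11) in suvh4/5/6, 3.25 (SE 0.58, adjusted p = 0.00135) in cmt2/3, 7.13 (SE 0.53, adjusted p = 9.93e-10) in sxc and 6.89 (adjusted p = 1.76e-09) in cxs by the edgeR quasi-likelihood test.

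AT2G01422, on the plus strand of chromosome 2 at 183940 to 184734, was at 0, 0 and 0.229 CPM in WT and at 27.2, 26.8 and 24.8 in suvh4/5/6. It was at 5.44, 7.18 and 4.17 CPM in cmt2/3, at 10.4, 13.8 and 12.5 in sxc and at 13.5, 9.12 and 15.4 in cxs. As at AT1G67105, suvh4/5/6 was highest, cmt2/3 lowest and the F1 plants lay between without overlapping either parent. With 3 counts in WT, the ratio of pooled CPM was 298 in suvh4/5/6 (95% interval from counting error alone 102 to 1446) and 63.4 in cmt2/3 (21.3 to 310), with adjusted p values of 1.78e-09 and 5.7e-06 (edgeR quasi-likelihood test).

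AT5G38005, on the plus strand of chromosome 5 at 15155067 to 15156088, followed the same order at lower levels. It was at 0.283, 0.098 and 0.0763 CPM in WT, at 5.31, 6.05 and 5.18 in suvh4/5/6, at 0.702, 1.04 and 0.776 in cmt2/3, at 2.49, 2.78 and 3.83 in sxc and at 3.24, 2.69 and 3.11 in cxs. The groups other than sxc and cxs did not overlap. The log2 fold change was 5.11 (SE 0.46, adjusted p = 2.04e-08) in suvh4/5/6 and 2.41 (SE 0.52, adjusted p = 0.00872) in cmt2/3.

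AT1G26558 and AT4G04223 were not called between the mutants and had closer levels in them. AT1G26558 (plus strand of chromosome 1, 9175611 to 9177598) was at 0.283, 0.196 and 0.0763 CPM in WT, at 14.7, 17.8 and 17.3 in suvh4/5/6 and at 13.2, 14.5 and 11.5 in cmt2/3. It was at 4.9, 7.27 and 8.64 CPM in sxc, below both parents, and at 13.5, 13.7 and 7.95 in cxs, which overlapped cmt2/3. The log2 fold changes from WT at AT1G26558 were 6.46 (SE 0.38, adjusted p = 7.05e-12), 6.12 (SE 0.38, adjusted p = 3.1e-11), 5.19 (SE 0.4, adjusted p = 1.71e-09) and 5.96 (adjusted p = 5.13e-11) in that order.

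AT4G04223 (plus strand of chromosome 4, 2036511 to 2037816) was the one locus of the 6 with clear expression in WT, at 5, 2.45 and 6.1 CPM. It was at 24.5, 33.8 and 25.2 CPM in suvh4/5/6, at 24.5, 26.4 and 24.1 in cmt2/3, at 25, 29.2 and 23.1 in sxc and at 25.5, 25.8 and 23 in cxs. The 4 genotypes overlapped one another and none overlapped WT, with log2 fold changes of 2.6, 2.45, 2.5 and 2.44 and adjusted p values from 1.37e-07 to 7.36e-07 (edgeR quasi-likelihood test). Of the 100-base stretches of AT4G04223, 44% occur elsewhere in the genome, so reads from other copies may be counted there or lost. The share was 13.9% at AT1G26558, 17.8% at AT4G34071, 6.08% at AT3G13277 and 0 at the other 8 loci.

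**Figure D3:**
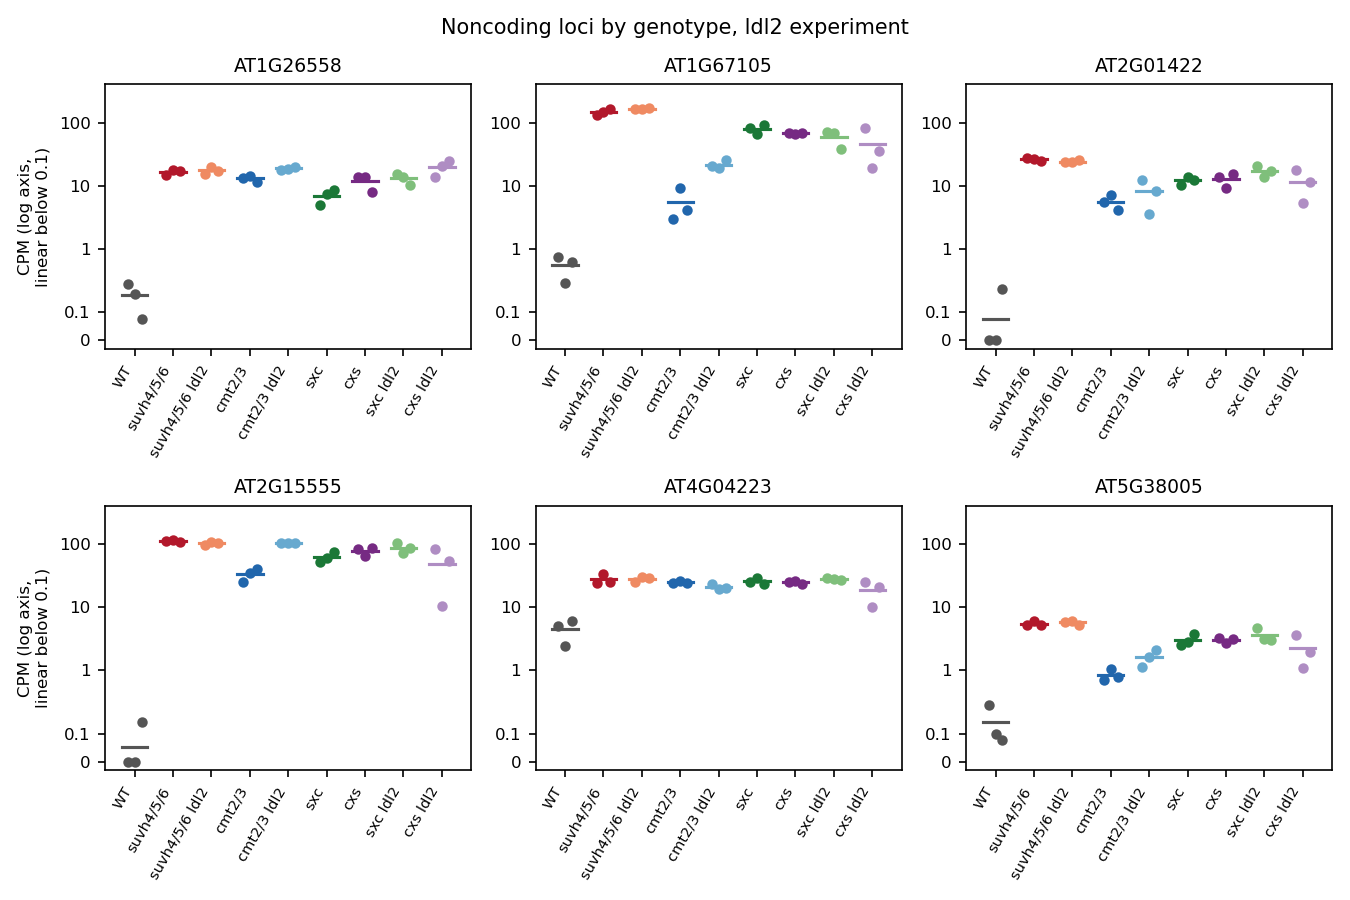
CPM of the 6 long noncoding RNA loci called in all 4 genotypes, in the 9 genotypes of the ldl2 experiment (vertical axis logarithmic, linear below 0.1), with points for libraries and bars for means. WT lies below every other genotype at each locus, and cmt2/3 lies below suvh4/5/6 at AT1G67105, AT2G01422, AT2G15555 and AT5G38005.

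The other 6 loci were called in fewer genotypes. AT2G07213, 1108 bp from a TE gene, was at 0, 0 and 0.305 CPM in WT, at 3.54, 3.57 and 2.17 in suvh4/5/6 and at 3.86, 4.91 and 9.7 in cmt2/3. In the F1 plants it was at 0.534, 1.72 and 0.617 CPM in sxc (adjusted p = 0.082) and at 1.66, 0.829 and 2.15 in cxs (adjusted p = 0.00913), all above WT and below both parents. AT2G06002 was at 0.66, 0.49 and 0.534 CPM in WT, at 9.98, 12.3 and 8.95 in suvh4/5/6 and at 2.72, 4.44 and 3.49 in cmt2/3, and was called in both mutants (log2 fold changes 4.19 and 2.64) but not in sxc (2.1, adjusted p = 0.0979) or cxs (2.17, adjusted p = 0.0854).

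AT2G05914 was called in suvh4/5/6 (37.7, 55.5 and 40.6 CPM against 1.13, 1.18 and 1.6 in WT, log2 fold change 5.07, SE 0.73, adjusted p = 4.72e-05), in sxc (adjusted p = 0.00975) and in cxs (adjusted p = 0.0236). In cmt2/3 it was at 2.19, 3.97 and 3.2 CPM, above each WT library, with a log2 fold change of 1.23 that did not pass (SE 0.81, adjusted p = 0.543). Its sxc libraries scattered widely, at 6.59, 37.5 and 1.73 CPM. AT3G13277 was called in cmt2/3 alone (5, 6.99 and 5.82 CPM against 2.73, 2.84 and 1.53, log2 fold change 1.33, adjusted p = 0.0169). AT4G14548 (4.91, 1.55 and 3.3 CPM against 0.943, 1.08 and 0.687, adjusted p = 0.034) and AT4G34071 (0.966, 1.86 and 2.26 CPM against 0.377, 0.098 and 0.458, adjusted p = 0.0167) were called in suvh4/5/6 alone.

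Whether the mutants differed at these loci was tested directly, in a comparison added after the data had been seen. Of the 1290 genes 5 were called in suvh4/5/6 against cmt2/3, all higher in suvh4/5/6, where 0.679% of all genes were called (0.634% higher, 0.0446% lower). They were AT1G67105 (log2 difference 4.78, SE 0.42, adjusted p = 2.08e-07), AT5G38005 (2.7, SE 0.36, adjusted p = 8.48e-05), AT2G01422 (2.23, SE 0.37, adjusted p = 0.00112), AT2G05914 (3.84, SE 0.66, adjusted p = 0.00186) and AT2G15555 (1.72, SE 0.38, adjusted p = 0.0224). The call at AT2G15555 was lost when any 1 of the 6 libraries was left out (adjusted p from 0.0531 to 0.224), and 4 genes were called in each case. In cxs against sxc, likewise added, 0 genes passed by edgeR, 24 had an unadjusted p under 0.05, DESeq2 called 0, and 0.00298% of all genes were called.

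The F1 plants inherited 1 set of chromosomes from each mutant, so their levels were set beside the mean of the parents as a description. Over the 12 loci the ratio to the parental mean had a median of 0.891 in sxc (0.207 to 1.19) and 0.836 in cxs (0.334 to 1.17). The F1 mean lay between the parents at 8 loci in sxc and 7 in cxs, and above WT at all 12. At AT1G67105 the parents averaged 77.1 CPM, from 149 in suvh4/5/6 and 5.44 in cmt2/3, and the F1 plants had 79.8 ± 13 (SD, n = 3) in sxc and 67.6 ± 1.57 in cxs. AT2G07213 and AT2G06002 lay farthest below the parental mean, with ratios of 0.207 and 0.367 in sxc and 0.334 and 0.37 in cxs.

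**Figure D4:**
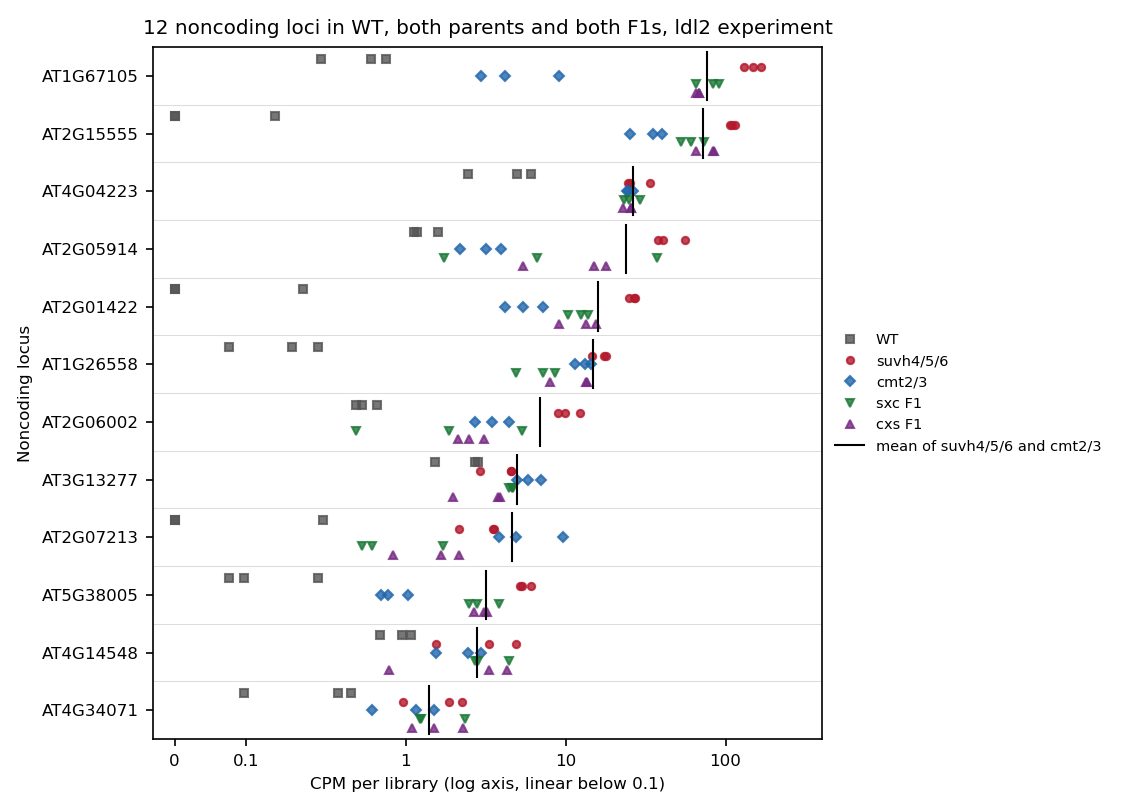
CPM per library (horizontal axis, log scale) of the 12 long noncoding RNA loci in WT, suvh4/5/6, cmt2/3, sxc and cxs of the ldl2 experiment, with a black line at the mean of suvh4/5/6 and cmt2/3. The F1 points lie near the line at AT1G67105 and AT4G04223 and below it at AT2G07213.

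The positions of the 12 loci varied. They lay a median of 14724 bp from the nearest TE gene, against 62792 bp over all 394 other_RNA genes, and 5 of 12 (41.7%) lay within 10 kb of one, against 73 (18.5%) of other_RNA genes. Another 4 (33.3%) were over 50 kb away, among them AT1G26558 and AT1G67105. On chromosome 2 there were 5 of the 12 (41.7%), against 21.1% of other_RNA genes. These shares describe 12 loci and were not tested.

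Genes lower than WT were few. AT4G16892, with counts of its own, was at 5.66, 5.19 and 5.95 CPM in WT and at 2.09, 2.41 and 2.73 in suvh4/5/6, without overlap (log2 fold change -1.22, adjusted p = 0.0478), a call lost under another scaling and when any 1 of the 6 libraries was left out. It was also lower in cxs than in WT in the ashh3 experiment, at 3.53, 3.66 and 1.91 CPM against 8.45, 5.73 and 5.44 (log2 fold change -1.09, adjusted p = 0.0347).

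The other lower genes shared their counts with neighbours. AT2G45315 was at 9.05, 8.23 and 8.54 CPM in WT and at 4.12, 4.53 and 5.82 in cmt2/3 (log2 fold change -0.84, adjusted p = 0.0136), and the coding gene on the counted strand, AT2G45310, was called in the same direction. AT2G32179, over AT2G32180, was at 36.7, 36.2 and 31.8 CPM in WT and at 24.9, 26.1 and 26.3 in cmt2/3 (-0.44, adjusted p = 0.0286), and AT5G44562, over AT5G44560, was at 10.5, 10.5 and 11.6 CPM in WT and at 7.97, 5.82 and 6.97 in suvh4/5/6 (-0.65, adjusted p = 0.0486). AT1G04425, at the level of its neighbours, was at 6.5, 9.31 and 7.32 CPM in WT and at 5.26, 2.46 and 4.27 in cmt2/3 (-0.94, adjusted p = 0.0275). The groups did not overlap at any of these 4 genes, and each call was lost when single libraries were left out, for 3 to 5 of the 6 libraries compared.

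The effect of ldl2 was compared within each background. By the edgeR quasi-likelihood test 0 were called in suvh4/5/6 ldl2 against suvh4/5/6 (19 at an unadjusted p under 0.05, 0 by DESeq2, 0.0238% of all genes called, 0.0208% higher and 0.00298% lower), 0 in cmt2/3 ldl2 against cmt2/3 (57 at an unadjusted p under 0.05, 5 by DESeq2, 0.0625% of all genes, 0.0565% higher and 0.00595% lower) and 0 in sxc ldl2 against sxc (22 at that p, 0 by DESeq2, 0.128% of all genes, 0.119% higher and 0.00893% lower). The count in cmt2/3 ldl2 against cmt2/3 was 1 without cmt2/3 replicate 2. It was higher when only the groups compared were in the fit, as given in the last section. The test of a difference in the ldl2 effect called 0 noncoding genes between cmt2/3 and suvh4/5/6 (edgeR, 41 with an unadjusted p under 0.05, 0.0119% of all genes), and 0 between cxs and sxc (181 at an unadjusted p under 0.05, or 62 without replicate 2 of cxs ldl2, 0% of all genes).

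At the 6 loci the values with ldl2 were as follows. AT1G67105 was at 20.5, 19 and 25.3 CPM in cmt2/3 ldl2, above the 2.98 to 9.16 of cmt2/3 without overlap, but the log2 difference of 1.99 (SE 0.40) did not pass (adjusted p = 0.0595). AT2G15555 was at 105, 104 and 103 CPM in cmt2/3 ldl2 against 25.4 to 40.2 in cmt2/3, again without overlap, with a log2 difference of 1.63 (SE 0.38, adjusted p = 0.153). In suvh4/5/6 ldl2 the same loci were at 161, 165 and 167 CPM and at 98.1, 109 and 104 CPM, overlapping the suvh4/5/6 libraries (log2 differences 0.15 and -0.09). The ldl2 effect at AT2G15555 differed between cmt2/3 and suvh4/5/6 by 1.72 on the log2 scale (SE 0.52), which did not pass with all libraries (adjusted p = 0.533, edgeR quasi-likelihood test). Without cxs ldl2 replicate 2, a library of neither background that shares the fit, it was 1.73 and passed (adjusted p = 0.00834), as the 1 noncoding gene called.

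AT4G04223 was at 23.4, 19.3 and 20.4 CPM in cmt2/3 ldl2, and AT1G26558 at 18, 18.7 and 20.1 CPM there, with log2 differences of -0.25 and 0.53 that did not pass (adjusted p = 0.847 and 0.452, edgeR quasi-likelihood test).

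In cxs ldl2 against cxs 1 gene was called, AT3G48115, where 0.101% of all genes were (0.0565% higher, 0.0446% lower), while DESeq2 called 61. This other_RNA gene lies over AT3G48120 on the opposite strand. It was at 14.4, 11.5 and 14.2 CPM in cxs, at 9.3, 4.19 and 6.84 in cxs ldl2 and at 10.6, 10.1 and 10.6 in WT, so that cxs ldl2 lay below both. The log2 difference was -0.98 (SE 0.20, adjusted p = 0.0491). It rested on single libraries, since 0 genes were called when replicate 1 or 3 of cxs or replicate 2 or 3 of cxs ldl2 was left out, whereas 12 were called without replicate 2 of cxs and 160 without replicate 1 of cxs ldl2. Over all 1290 genes the median log2 difference was 1.31, against 0.08 over all genes, with 2.46 over tRNA genes and 1.86 over miRNA genes, and 285 had an unadjusted p under 0.05. Without replicate 2 of cxs ldl2 the medians were 0.12 over the 1290 genes, 0 over all genes, 0.21 over tRNA genes and 0.41 over miRNA genes, and 63 of the 1290 had an unadjusted p under 0.05.

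Over all 9 genotypes 50 noncoding genes were called, 29 other_RNA, 15 tRNA, 4 miRNA, 1 snoRNA and 1 snRNA gene, where 7.09% of all genes were called. Of these, 22 were at the level of their neighbours, 8 overlapped another gene on the counted strand and 20 had counts of their own, 16 of them other_RNA. The cxs ldl2 libraries decided this number: leaving out replicate 2 gave 16, all other_RNA, where 4.8% of all genes were called, leaving out replicate 3 gave 29 and leaving out replicate 1 gave 147.

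In the ashh3 experiment the contrast of cxs with WT was repeated in other libraries and gave more calls. Of the 1290 genes 49 were called, 34 higher and 15 lower, where 5.63% of all genes were called (2.37% higher, 3.25% lower). They were 35 other_RNA genes (21 higher, 14 lower), 9 tRNA genes, 3 snoRNA genes and 1 snRNA gene, all higher, and 1 miRNA gene, lower. By the origin of the counts, 12 were at the level of their neighbours, all higher. Another 18 overlapped a gene on the counted strand (8 higher, 10 lower), and 19 had counts of their own (14 higher, 5 lower). Among these 14 were AT5G66562, AT5G66564, AT5G66567 and AT5G66568, whose near-equal counts make them 1 measurement rather than 4.

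Of the 12 loci described above, 8 were called again in cxs: the 6 shared loci, AT2G05914 and AT2G07213. AT2G15555 was at 0 in all 3 WT libraries and at 37.6, 59.5 and 49.3 CPM in cxs, at least 447-fold higher than the limit that 3 counts over the WT group set (0.109 CPM). AT1G26558 was at 0.111, 0.702 and 0.302 CPM in WT and at 11, 11.5 and 10.9 in cxs, a log2 fold change of 4.88 (adjusted p = 2.03e-08). AT1G67105 was at 1.67, 0.702 and 0.705 CPM in WT and at 8.03, 22.6 and 16.6 in cxs (3.93, adjusted p = 1.81e-07). Again no cxs library overlapped WT at these loci.

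AT2G01422 was at 0, 0 and 0.403 CPM in WT and at 10.5, 17.5 and 15.5 in cxs (log2 fold change 6.51, SE 0.59, adjusted p = 1.14e-07). AT4G04223 was at 6.89, 4.33 and 6.75 CPM in WT and at 28.4, 30.9 and 30.6 in cxs (2.31, SE 0.15, adjusted p = 9.33e-10). AT5G38005 was at 1.11, 0.117 and 0.403 CPM in WT and at 3.23, 3.57 and 4.06 in cxs (2.7, SE 0.44, adjusted p = 0.000381). These 3 also lay above WT in every cxs library. AT2G05914 was at 0.778, 0.117 and 0 CPM in WT and at 2.15, 3.66 and 1.91 in cxs (3.09, SE 0.61, adjusted p = 0.00267). AT2G07213 was at 0 in WT and at 1.96, 0.289 and 0.477 CPM in cxs, at least 8.54-fold higher than the same limit (adjusted p = 0.00935), a call lost without cxs replicate 1 (adjusted p = 0.0522).

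Further genes with counts of their own changed in cxs of the ashh3 experiment and were named after their values were seen. AT2G05995, counted on the strand opposite to its annotation, was at 0.667, 0.585 and 0.806 CPM in WT and at 8.33, 5.78 and 4.66 in cxs (log2 fold change 3.16, adjusted p = 4.81e-06). AT1G23052 fell from 8.12, 9.12 and 15.3 CPM to 3.53, 3.66 and 4.66 (-1.47, adjusted p = 0.00061), and AT1G07128 from 4.34, 5.5 and 5.64 CPM to 2.55, 1.93 and 1.67 (-1.32, adjusted p = 0.005). At each of these genes the WT and cxs libraries did not overlap. In the ldl2 experiment none of them was called in cxs against WT, and the libraries overlapped at each. The log2 fold changes there were 0.78 at AT2G05995, 0.07 at AT1G23052 and 0.01 at AT1G07128.

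Where a called gene overlapped a protein-coding gene on the counted strand, the pair moved together. All 18 such genes in cxs against WT changed in the direction of the partner, and for 14 of them the partner was itself called. AT5G59732 lies antisense to AT5G59730 and was counted on the latter's strand. It was at 62.8, 57.2 and 68.5 CPM in WT, at 16.3, 21.6 and 20.9 in cxs and at 30.2, 42 and 31.7 in cxs ashh3, 3 groups without overlap. Its log2 fold change in cxs was -1.68 (adjusted p = 1.83e-08) and that of AT5G59730 was -1.77 (adjusted p = 9.17e-09). In cxs ashh3 against cxs AT5G59732 changed by 0.83 (adjusted p = 0.00267) and its partner by 0.91 (adjusted p = 0.000973). In the ldl2 experiment AT5G59732 was at 15.4, 21.5 and 15.3 CPM in WT and at 17.5, 16.2 and 17 in cxs, which overlapped. The miRNA gene MIR860 (AT5G26038) was at 11.2, 11.5 and 6.75 CPM in WT and at 1.37, 5.11 and 2.98 in cxs (-1.62, adjusted p = 0.00202), and AT5G26030, annotated on the counted strand at the same place, changed by -1.08 (adjusted p = 1.02e-07).

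ASHH3 is a histone methyltransferase of the group that acts on H3K36. In cxs ashh3 against cxs 15 noncoding genes were called, 2 higher and 13 lower, where 1.06% of all genes were called (0.557% higher, 0.506% lower). Of the 13 lower genes, 7 were at the level of their neighbours and 1 overlapped another gene on the counted strand. The other 5, with counts of their own, were AT1G26558, AT5G66562, AT5G66564, AT5G66567 and AT5G66568. The last 4 had near-equal counts and are 1 measurement rather than 4. The count was 4 without cxs ashh3 replicate 1.

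The long noncoding RNAs raised in cxs did not move as one in cxs ashh3. AT1G26558 was at 2.2, 4.5 and 5.33 CPM in cxs ashh3, below the 10.9 to 11.5 of cxs and above WT (log2 difference -1.46, SE 0.27, adjusted p = 0.00847), a call lost without cxs ashh3 replicate 1 (-1.17, adjusted p = 0.0506). AT1G67105 moved the other way, to 34.3, 38.1 and 45.5 CPM, above each cxs library of this experiment (log2 difference 1.32, SE 0.24, adjusted p = 0.00493, and 0.0595 when genes with low counts were removed first). The level of AT1G67105 in cxs also differed between experiments. Its mean in cxs of the ldl2 experiment was 67.6 CPM (SD 1.57), above every cxs and cxs ashh3 library here. AT2G15555 was at 56.9, 51.4 and 51.9 CPM, overlapping cxs (0.13, adjusted p = 0.821), and AT4G04223 was at 28, 26.7 and 26.2, just below the cxs libraries (-0.15, adjusted p = 0.749). AT2G01422 was at 8.57, 10 and 2.78 CPM, below each cxs library, with a difference of -1.02 that did not pass (adjusted p = 0.199).

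**Figure D5:**
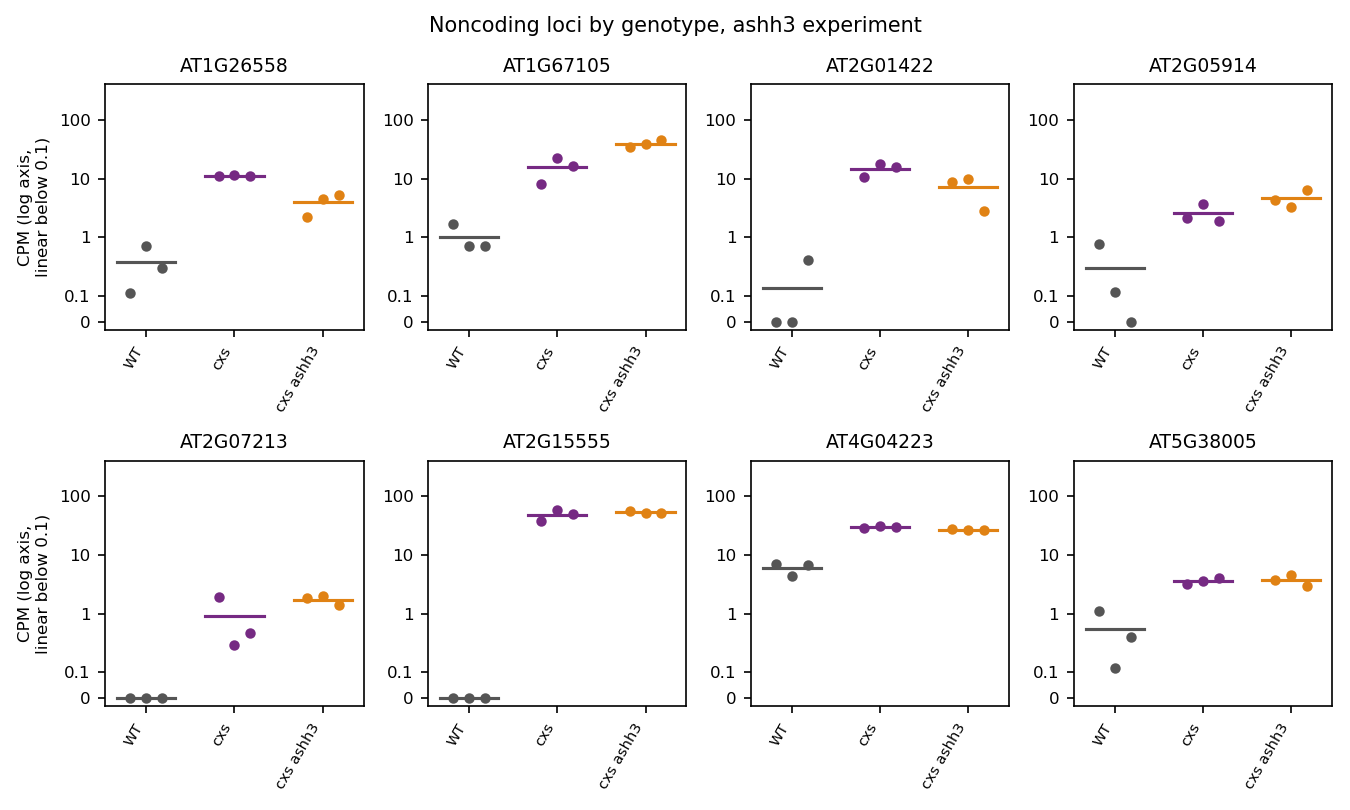
CPM of 8 long noncoding RNA loci in WT, cxs and cxs ashh3 of the ashh3 experiment (vertical axis logarithmic, linear below 0.1), with points for libraries and bars for means. AT1G26558 is lower and AT1G67105 higher in cxs ashh3 than in cxs, while AT2G15555 overlaps between them.

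A cluster of snoRNA and tRNA genes on chromosome 5, AT5G66562, AT5G66564, AT5G66567 and AT5G66568, went up and down together. Their counts summed to 843 to 851 each over the ashh3 experiment and to 6099 to 6125 each over the ldl2 experiment, so they are 1 measurement rather than 4. AT5G66562 was at 6.34, 8.19 and 9.17 CPM in WT, at 16.3, 13.2 and 14.3 in cxs and at 7.96, 9.1 and 6.72 in cxs ashh3. The cxs libraries lay above the other groups (log2 fold change 0.88, adjusted p = 0.00276 against WT, and -0.88, adjusted p = 0.0152 for cxs ashh3 against cxs). The lowest flanking counts came to 30.2% to 43.6% of the counts of these genes there. U1.5, at the level of its neighbours, was at 12.6, 13.4 and 23.6 CPM in WT, at 43.2, 21.5 and 30.8 in cxs and at 14.9, 16.2 and 17.6 in cxs ashh3.

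Over the 3 genotypes of the ashh3 experiment 48 noncoding genes were called, where 6.68% of all genes were. Of these 10 were at the level of their neighbours, 19 overlapped another gene on the counted strand and 19 had counts of their own.

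Of the TAS loci, TAS1A, TAS1B, TAS1C, TAS2 and TAS3 had counts of their own. TAS3b (AT5G49615) and TASIR-ARF (AT5G57735) were at the level of their neighbours in the ldl2 experiment. Their lowest flanking counts came to 51% and 76.9% of their own. The TAS4 locus AT3G25795 was at that level too, with 72.9% of 48 counts. In the ashh3 experiment it had 31 counts, and the share was 0%. In the ldl2 experiment the mean level was 10.7 TPM for TAS1A (AT2G27400), 9.96 for TAS1B (AT1G50055), 12 for TAS1C (AT2G39675), 22.8 for TAS2 (AT2G39681) and 13.7 for TAS3 (AT3G17185), whose siRNAs act on auxin response factor mRNAs and whose trigger is miR390. In the test over all genotypes TAS3b was called (adjusted p = 0.0185), and so was TAS1B (adjusted p = 0.0228), both of which lost the call without cxs ldl2 replicate 2 (adjusted p = 0.586 and 0.142). TAS1B was at 5.94, 5.49 and 4.27 CPM in WT, 3.33, 3.21 and 4.27 in cmt2/3 and 6.17, 9.39 and 5.57 in cxs ldl2, in which replicate 2 was the highest. TAS1A, TAS1C, TAS2 and TAS3 were not called (adjusted p = 0.772, 0.265, 0.296 and 0.515). No TAS locus was called in the ashh3 experiment, where TAS2 differed by -0.49 between cxs ashh3 and cxs (adjusted p = 0.117, edgeR quasi-likelihood test). MIR173 itself had 2 counts in the ldl2 experiment and 0 in the ashh3 experiment, so its precursor was not detectable at this depth.

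The miRNA genes were grouped by the role of their targets. Of 17 genes that act on developmental age and flowering (MIR156, MIR157 and MIR172), 9 had at least 100 counts in the ldl2 experiment, 6 of these were below the level of their neighbours, and 0 were called over all genotypes. Of 19 genes of nutrient and copper supply (MIR395, MIR397, MIR398, MIR399, MIR408 and MIR827), 9 had at least 100 counts and 1 was called, MIR399c, which was at the level of its neighbours (92.1%). MIR399a led that group at 121 TPM but was at the level of its neighbours (100%). MIR398b, whose product targets copper superoxide dismutase mRNA, was at 86.4 TPM with lowest flanking counts of 17.4%. Of 49 genes of leaf, root and meristem patterning, 27 had at least 100 counts. Of the 49, 2 were called, MIR171b and MIR169d, with lowest flanking counts of 24.5% and 16.4%. MIR169d had 67 counts and so was not among the 27. The counts of both genes were antisense to the annotated precursor, so these calls do not measure the precursors. Over all genes 7.09% were called in that test. Without cxs ldl2 replicate 2 no miRNA gene was called by edgeR (7 had an unadjusted p under 0.05), with adjusted p = 0.591 for MIR399c, 0.549 for MIR171b and 0.169 for MIR169d. The 4 genes that act on the silencing machinery (MIR162, MIR168 and MIR403) had under 100 counts each, and of the 5 ta-siRNA triggers 1 had more. In the ashh3 experiment 1 of all these was called, the patterning gene MIR170, where 6.68% of all genes were called. MIR170 was at the level of its neighbours (99.6%) and was also counted on the strand opposite to its annotation. Of the 13 snRNA genes U1.5 alone was called over all genotypes of the ldl2 experiment (adjusted p = 0.00923, and 0.311 without cxs ldl2 replicate 2). U2.3, one of several U2 genes, was at 3.67 TPM with lowest flanking counts of 3.31%, but it was counted on the strand opposite to its annotation.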

How the data were processed

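The authors aligned clipped paired-end mRNA-seq reads to TAIR10 with STAR and deposited whole-number counts per gene, keeping for each gene and each table the strand with the larger sum. The version of STAR is not given in the sources used here. The 2 tables were fitted separately. CPM of single genes, counts divided by TMM-scaled library sizes, and TPM from CPM and the annotated genomic span, were computed here from the deposited counts. CPM summed over an annotation class used library sizes without TMM scaling. Groups were compared with the quasi-likelihood F test of edgeR 4.0.16 in R 4.3.3 (all genotypes of an experiment in a fit, no filter, Benjamini-Hochberg adjustment over all 33602 genes, adjusted p under 0.05). DESeq2 1.42.0, RLE scaling, filterByExpr, a replicate block, fits of only the groups compared, and leaving out each library were the alternatives. The code was tested on simulated data.

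Members and lists were chosen with earlier results of these data known. Named genes were, by rule, the 3 of highest TPM in each class, up to 5 largest rises and falls per comparison without overlap between groups, the 5 of smallest p per class over all genotypes, the TAS loci and the miRNA and snRNA lists, of which longer lists are named only for called or highest genes. IPS1, AT4, and the signal recognition particle, RNase P and MRP RNAs were not matched by symbol and are not used here. Genes called with counts of their own, the comparison with flanking genes, the start regions, and the comparisons suvh4/5/6 against cmt2/3 and cxs against sxc were added after seeing the data. A replicate is described as biological by the study, and p-values measure the spread between these libraries. Counting intervals cover counting error only. Sequences are from the RefSeq TAIR10.1 genome, in which all 1290 genes were found, 952 with the coordinates of the tables. Whole-number counts of other deposited experiments were not used here.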

Additional observations from a re-analysis of the deposited data

How the results depend on the processing

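Of 48 fold changes of named genes, 575 values under the alternatives were computed, of which 505 kept their direction and side of the threshold, 70 kept the direction but no longer passed, and 0 reversed. The cause of the changes below was not tested.

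With DESeq2 the number of noncoding genes called was 27 in cmt2/3 against WT, 11 in sxc against WT, 5 in cmt2/3 ldl2 against cmt2/3, 61 in cxs ldl2 against cxs and 138 over all genotypes of the ldl2 experiment. With only the 2 groups compared in the fit it was 29 in cmt2/3 against WT, 26 in cmt2/3 ldl2 against cmt2/3 and 0 in cxs ldl2 against cxs. Under RLE scaling it was 1 in cmt2/3 ldl2 against cmt2/3 and 0 in cxs ldl2 against cxs. After filterByExpr it was 8 in cxs ashh3 against cxs.

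Without genes at the level of their neighbours, a choice made after seeing the data, the count was 28 over all genotypes of the ldl2 experiment and 8 in cxs ashh3 against cxs. Without overlapping genes as well, it was 20 and 6, and 19 both in cxs against WT and over all genotypes of the ashh3 experiment.

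With the replicate block 0 genes were called in cxs ldl2 against cxs, and no other count moved by over 1.5 times. In the ldl2 experiment same-numbered libraries deviated together with a mean correlation of 0.043 (38 of 108 pairs over 0.1), against -0.021 for other numbers. There 16 of 27 libraries were closest to their own number, so whether the numbers pair libraries was not settled. In the ashh3 experiment the mean correlation was -0.065 (1 of 9 pairs over 0.1), against 0.033 for other numbers. Of its libraries 1 of 9 was closest to its own number.

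Leaving out each library in turn gave 9 to 11 calls in suvh4/5/6, 7 to 11 in cmt2/3, 6 to 11 in sxc and 6 to 8 in cxs against WT, 0 to 1 in cmt2/3 ldl2 against cmt2/3, 0 to 160 in cxs ldl2 against cxs, 16 to 147 over all genotypes of the ldl2 experiment, 35 to 53 in cxs against WT, 4 to 19 in cxs ashh3 against cxs and 40 to 61 over all genotypes of the ashh3 experiment. Depth limits the small genes: 630 and 877 of the 1290 had under 100 counts in the 2 experiments.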
